A study of Mus musculus with 12 samples.

Results

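The blood-brain barrier is formed by endothelial cells whose tight junctions seal the space between neighbouring cells, so that nutrients must pass through carriers in the membrane and many foreign molecules are pumped back into the blood. Carriers for glucose, amino acids, lipids and organic anions, efflux pumps of the ATP-binding cassette (ABC) family and receptors that ferry iron-loaded transferrin define this endothelium, whereas Plvap, a protein of fenestrated and caveolar openings, is typical of leaky vessels. The 10 genes followed here are Cldn5, a claudin of endothelial tight junctions; the efflux pumps Abcb1a (P-glycoprotein) and Abcg2 (breast cancer resistance protein); the carriers Slc2a1 (Glut1, glucose), Slco1a4 (organic anions), Mfsd2a (lysolipids carrying docosahexaenoic acid), Slc7a5 (Lat1, large neutral amino acids) and Slc38a5 (glutamine and other small amino acids); Tfrc, the transferrin receptor; and Plvap. They were chosen by name, with earlier results of these data known, and all 10 were among the 31053 genes of the table. On GRCm38 (GENCODE vM21) they are protein-coding genes at chr16:18776847-18778262 (Cldn5), chr5:8660077-8748575 (Abcb1a), chr6:58584523-58695676 (Abcg2), chr4:119108711-119137983 (Slc2a1), chr6:141805440-141856199 (Slco1a4), chr4:122946850-122961188 (Mfsd2a), chr8:121881150-121907694 (Slc7a5), chrX:8271133-8280179 (Slc38a5), chr16:32608920-32632794 (Tfrc) and chr8:71497765-71511752 (Plvap).

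The cells came from striatal tissue of wild type mice and were sorted magnetically for ACSA2, an antigen on the astrocyte surface, before 10x droplet sequencing of polyadenylated RNA. 2 postnatal libraries were compared with 2 libraries of mice aged 3 months (3m), and the 12 samples of the labels were runs of these 4 libraries. For the postnatal libraries the labels disagreed on age: replicate 1 was day 7 by title and day 3 by age tag, and replicate 2 was day 3 by title and day 7 by age tag, so both were kept as postnatal. The study itself describes day 3 as the age of its young striatal mice. The labels give the strain as mixed, whereas the study's methods name male C57BL/6Jax mice for brain tissue. The methods pool several animals in a preparation and leave out the subventricular zone, but nothing ties an animal to a library, so the tests measure the spread between libraries.

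Endothelial cells were not the target of the enrichment and were taken from what it carried over. A cell counted as endothelial when Pecam1, Esam and Itm2a each had at least 1 unique molecular identifier (UMI, a counted RNA molecule), over 500 genes were detected and under 10% of UMIs were mitochondrial. This gave 136 of 3117 filtered cells, namely 33 and 24 in postnatal replicates 1 and 2 and 45 and 34 in 3m replicates 1 and 2, or 5.95%, 3.32%, 4.02% and 4.73% of each library. The label held against a second gate that shared no gene with the first: 29 of 33, 20 of 24, 43 of 45 and 33 of 34 of these cells also had UMIs of Cdh5, Ly6c1 and Flt1. Among the gate genes, which are not read as results, Itm2a stood at 1391 and 1182 CPM (the UMIs of a gene scaled to a total of 1000000 over all genes of the summed cells) in the postnatal and 3855 and 5206 CPM in the 3m endothelial sums.

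Some properties of the endothelial cells moved with age. The median endothelial cell had 40395 and 47120 UMIs in postnatal replicates 1 and 2 and 8380 and 8269 in 3m replicates 1 and 2. Over all filtered cells the medians were 9547 and 11644 against 7737.5 and 10298. The gap in depth thus lay in the endothelial cells and not in the libraries as a whole. Postnatal replicate 2 and 3m replicate 2 shared 95 barcodes, and the member of each pair with fewer UMIs was left out. Of the endothelial cells, 21 of 33, 20 of 24, 20 of 45 and 15 of 34 also passed a mural gate (Rgs5, Vtn, Pdgfrb). The share that passed was thus lower at 3m, but it was not taken at equal depth. The 7 mural markers summed to 3656 and 3060 CPM in the postnatal and 9573 and 11010 CPM in the 3m endothelial sums, with Acta2 alone at 0 in 3 of the 4. Erythroid markers summed to 45101, 53507, 40528 and 29267 CPM, nearly all of it haemoglobin RNA. Markers of oligodendrocytes summed to 17.4 and 19.4 CPM in the postnatal and 169 and 298 CPM in the 3m sums, and markers of astroglia stood at 143 and 152 against 272 and 264 CPM. The astroglia markers did not move one way. Atp1b2 went from 42.2 and 35.7 to 175 and 166 CPM, while Gja1 fell from 91.3 and 107 to 21.1 and 31.6 CPM. Markers of neurons lay between 99.2 and 201, of fibroblasts between 32.3 and 44.3, of microglia between 0 and 16.3, and of choroid plexus between 0 and 6.21. In mural-gated cells every member other than Plvap was lower than in endothelial cells of the same library, with a highest value of 172 CPM for Cldn5 in 3m replicate 1. What part the shift in mural, erythroid and oligodendrocyte RNA, the mixed moves of astroglia markers or the gap in depth had in the changes below was not tested, beyond the recounts given with them.

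Windows of 250 bases before an annotated start were found for 8 of the 10 members in RefSeq (build GRCm38.p6), 11 windows in all, of which 5 overlapped no annotated exon. 4 of these 5 are shown because they belong to the member that rose most with age (Slco1a4), to a second efflux gene that rose (Abcg2), to the junction gene that was not called (Cldn5) and to the member that fell most (Tfrc). Capitals mark 2 motifs searched on both strands, CAAAG, the core bound by TCF/LEF factors of the Wnt pathway, and GGGCGG, the GC box. They were found in 48.6% and 32.7% of 32851 such windows of all genes, and they do not overlap each other here.
Slco1a4: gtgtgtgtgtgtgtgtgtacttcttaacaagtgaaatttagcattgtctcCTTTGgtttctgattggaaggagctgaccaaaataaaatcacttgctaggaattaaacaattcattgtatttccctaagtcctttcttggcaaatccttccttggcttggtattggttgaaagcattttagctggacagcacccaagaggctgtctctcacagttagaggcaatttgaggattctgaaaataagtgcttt
Abcg2: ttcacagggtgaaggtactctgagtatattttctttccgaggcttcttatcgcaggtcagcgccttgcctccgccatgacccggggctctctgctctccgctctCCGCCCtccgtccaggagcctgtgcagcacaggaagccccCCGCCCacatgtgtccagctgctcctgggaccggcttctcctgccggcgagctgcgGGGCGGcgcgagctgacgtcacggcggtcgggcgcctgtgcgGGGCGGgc
Cldn5: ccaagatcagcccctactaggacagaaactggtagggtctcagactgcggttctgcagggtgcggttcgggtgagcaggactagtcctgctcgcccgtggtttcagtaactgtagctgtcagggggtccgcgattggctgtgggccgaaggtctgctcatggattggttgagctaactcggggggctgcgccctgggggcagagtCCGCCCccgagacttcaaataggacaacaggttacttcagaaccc
Tfrc: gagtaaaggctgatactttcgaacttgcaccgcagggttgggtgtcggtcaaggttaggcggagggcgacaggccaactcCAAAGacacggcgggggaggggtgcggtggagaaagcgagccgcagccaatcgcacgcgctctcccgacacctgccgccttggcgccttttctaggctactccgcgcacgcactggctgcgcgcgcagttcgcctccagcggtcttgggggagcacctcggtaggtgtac

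The Slco1a4 window (chr6:141856221-141856470, minus strand) lies just before the gene and the Cldn5 (chr16:18776597-18776846) and Tfrc (chr16:32608646-32608895) windows before theirs, both on the plus strand. The Abcg2 window (chr6:58640296-58640545, plus strand) lies inside the gene but in no annotated exon, before the third of its 3 RefSeq starts. The Slco1a4 window held no CpG and 39.2% G and C, with 1 CAAAG core and no GC box. The window of Abcb1a, the other member with the steepest rise, was alike in composition, with no CpG, 40.4% G and C and 3 CAAAG cores, but RefSeq places that start far outside the gene as GENCODE draws it, so it is not printed. In contrast, the Abcg2, Cldn5 and Tfrc windows held 23, 12 and 25 CpG, against a median of 6 over all windows, and Abcg2 had 4 GC boxes, Cldn5 had 1 and Tfrc had none, while Tfrc alone of these 3 had a CAAAG core, a single one. The windows of Slc2a1, Mfsd2a and Slc38a5 held 13, 17 and 8 CpG. The other windows of Abcg2 were poorer than the one shown, with 3 CpG and no GC box and with 10 CpG and 2 GC boxes, and the second Tfrc window held 23 CpG and 1 GC box. A match describes these letters only.

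9 of the 10 members could be tested between ages in endothelial cells, after UMIs were summed per library and genes with low counts were filtered out. A gene was called at an adjusted p of at most 0.05 (edgeR quasi-likelihood test, Benjamini-Hochberg over 8712 genes) and at least a 2-fold change. 4 members were called higher at 3m, where 9.89% of all genes tested were, and 3 were called lower, where 9.26% were. The members were chosen with earlier results of these data known, so these counts describe the set and do not test it. The gains were in both efflux pumps and in the glucose and organic anion carriers, and the losses in the lipid and large neutral amino acid carriers and in the transferrin receptor.

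**Figure D1:**
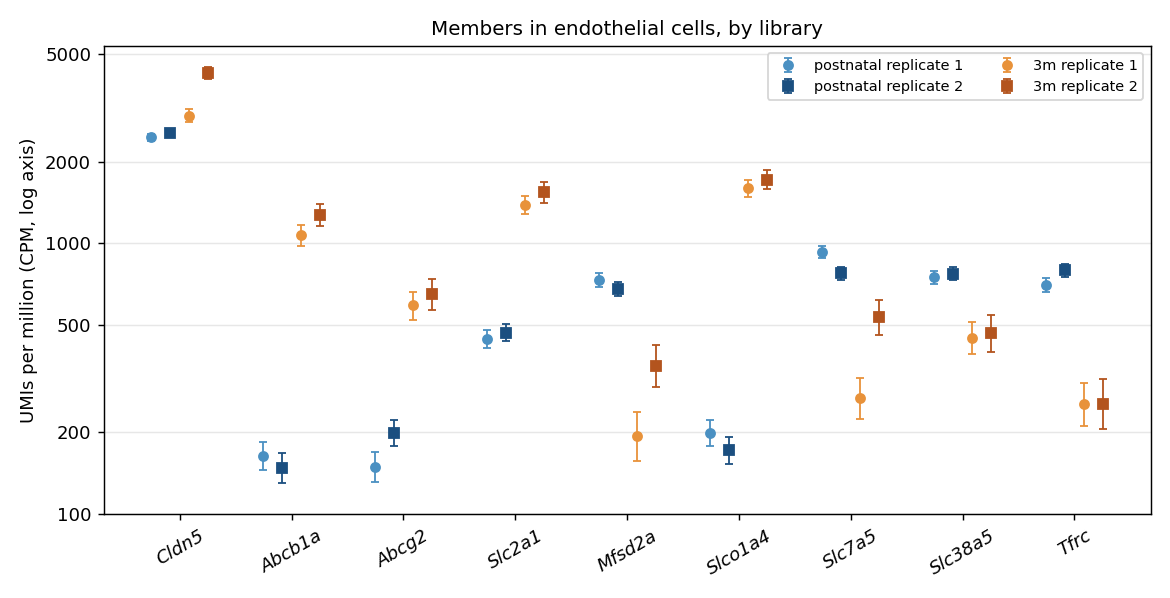
Level of 9 members in endothelial cells of each library, in CPM on a log axis. Bars are exact 95% Poisson intervals, which cover counting error only. The 3m points lie above both postnatal points for Cldn5, Abcb1a, Abcg2, Slc2a1 and Slco1a4 and below them for Mfsd2a, Slc7a5, Slc38a5 and Tfrc.

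Cldn5, the claudin that seals the junction, stood at 2460 and 2558 CPM in postnatal replicates 1 and 2 and at 2958 and 4256 CPM in 3m replicates 1 and 2. Both 3m values were the higher, but they differed from each other by more than 3m replicate 1 differed from the postnatal libraries. The log2 fold change of 0.32 ± 0.16 (SE, n = 2 libraries per age) did not pass (adjusted p = 0.153, edgeR), and its 95% interval ran from 0.988-fold to 1.58-fold. The value rested on 3m replicate 2, since it was 0.05 without that library and 0.58 without 3m replicate 1.

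Of the efflux pumps, Abcb1a, which expels many drugs, rose from 164 and 148 CPM in the postnatal libraries to 1068 and 1269 CPM at 3m. It was 6.51-fold higher (log2 2.70 ± 0.16 SE, adjusted p = 1.88e-09, edgeR). Abcg2, a pump with overlapping substrates, went from 150 and 199 CPM to 589 and 649 CPM, a 3.09-fold rise (log2 1.63 ± 0.18 SE, adjusted p = 1.79e-06, edgeR). In both cases the libraries of an age lay close together and the ages did not overlap. Abcb1a shares sequence with its neighbour Abcb1b: 140 of the 858 windows of 91 bases in the last 500 bases of its transcripts were also in Abcb1b, which itself had 0, 0.605, 4.22 and 0 CPM here. For the other 9 members no such window was found in another gene.

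Slco1a4, which carries organic anions such as steroid conjugates, showed the steepest rise among the members, from 199 and 172 CPM to 1592 and 1716 CPM. The change was 7.78-fold (log2 2.96 ± 0.16 SE, adjusted p = 5.24e-10, edgeR), with a 95% interval of 6.16-fold to 9.82-fold. Slc2a1, the main glucose entry route, rose 2.80-fold from 443 and 467 CPM to 1387 and 1538 CPM (log2 1.48 ± 0.15 SE, adjusted p = 6.42e-07, edgeR). All 4 rises stood in each of the 19 other settings tried, and in none of them did a rise fall below 2-fold.

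The carriers that fell did so less evenly. Mfsd2a, the lysolipid carrier that also restrains vesicle transport, stood at 733 and 676 CPM in the postnatal libraries and at 194 and 353 CPM at 3m, 3.00-fold lower (log2 SE 0.21, adjusted p = 1.61e-05, edgeR). Slc7a5 went from 925 and 774 CPM to 268 and 534 CPM, a 2.46-fold fall (log2 SE 0.22, adjusted p = 0.00024, edgeR). For both genes the 3m libraries lay well apart from each other, with 3m replicate 1 the lower, although neither overlapped with the postnatal libraries. Without 3m replicate 1 the Slc7a5 log2 change was -0.86 and the gene was no longer called, whereas Mfsd2a kept its call at -1.18.

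Tfrc fell with little spread, from 699 and 794 CPM to 255 CPM in each 3m library, 3.35-fold lower with a 95% interval of 2.63-fold to 4.27-fold (adjusted p = 3.53e-07, edgeR). Tfrc is also a gene of erythroid precursors, and at least 1 haemoglobin UMI was found in 22 and 16 postnatal and 7 and 3 3m endothelial cells. Without the cells in which it exceeded 1% of UMIs (7, 9, 2 and 1 cells), Tfrc was still called, with a log2 change of -1.53 (adjusted p = 7.8e-06, edgeR). This recount was added after seeing the data.

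Slc38a5 stood at 747 and 772 CPM in the postnatal and 448 and 465 CPM in the 3m libraries, again without overlap. The 1.91-fold fall had an adjusted p of 0.00015 (edgeR) but stayed under the 2-fold rule, so it was not called. When the endothelial cells that passed another gate, mostly the mural one, were left out, 9, 3, 23 and 18 cells remained and the log2 change was only -0.29 (adjusted p = 0.570, edgeR). All 7 called members stayed called in that recount, among them Slco1a4 (log2 3.31), Abcb1a (3.06), Slc2a1 (1.13) and Tfrc (-1.93).

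Plvap was close to absent. Endothelial cells held 0 and 5 UMIs of it in postnatal replicates 1 and 2 and 0 and 1 in 3m replicates 1 and 2, and the 5 came from 2 cells. A count of 0 allows up to 1.86 CPM in postnatal replicate 1 and 6.33 CPM in 3m replicate 1, counting error only. Plvap did not pass the filter, so no change with age was testable at this depth.

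The share of cells in which a member was found was then compared at equal depth. Every endothelial cell was thinned to 2000 UMIs, which left out 2 cells of postnatal replicate 2. Abcb1a was then detected in 33.3% and 22.7% of postnatal and 91.1% and 88.2% of 3m cells, and Slco1a4 in 42.4% and 31.8% against 93.3% and 97.1%. Both pairs lie far apart, while in astroglia, which should lack these genes, the thinned share was 0 in all 4 libraries for Abcb1a and at most 0.599% for Slco1a4. Slc2a1 was in 66.7% and 50% of postnatal and 93.3% and 85.3% of 3m cells, and Abcg2 in 30.3% and 40.9% against 68.9% and 70.6%.

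The members that were lower at 3m were still found there in many cells. Mfsd2a was in 66.7% and 77.3% of postnatal and 31.1% and 47.1% of 3m cells, and Slc38a5 in 63.6% and 72.7% against 48.9% and 35.3%. Tfrc went from 48.5% and 81.8% to 35.6% and 35.3%, with the postnatal libraries further apart than the ages at their nearest. Slc7a5 was in 66.7% and 86.4% against 48.9% and 61.8%. Cldn5 was near its ceiling, in 93.9%, 95.5%, 100% and 91.2% of cells, and no thinned cell had a Plvap UMI. That held for this gate: with only 2 of the 3 gate genes asked for, Cldn5 was in 73.2% and 62.9% of postnatal and 96.4% and 92.7% of 3m cells. In all, 4 members had both 3m shares above both postnatal shares and 4 had both below, against 26.7% and 23.5% of 3258 genes found in at least 10% of cells on average. The exact two-sided permutation test over 2 against 2 libraries cannot give a p below 0.33, which is what these 8 members had. Without thinning, the shares of the steepest rising members lay closer. Abcb1a was found in 90.9% and 91.7% of postnatal and 100% of 3m cells, and Slco1a4 in 87.9% and 83.3% against 97.8% and 100%. For Slc38a5, which was lower at 3m, the unthinned shares were 90.9% and 95.8% against 64.4% and 58.8%. The median thinned endothelial cell showed 5 and 5.5 of the 10 members in the postnatal and 6 in each 3m library.

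**Figure D2:**
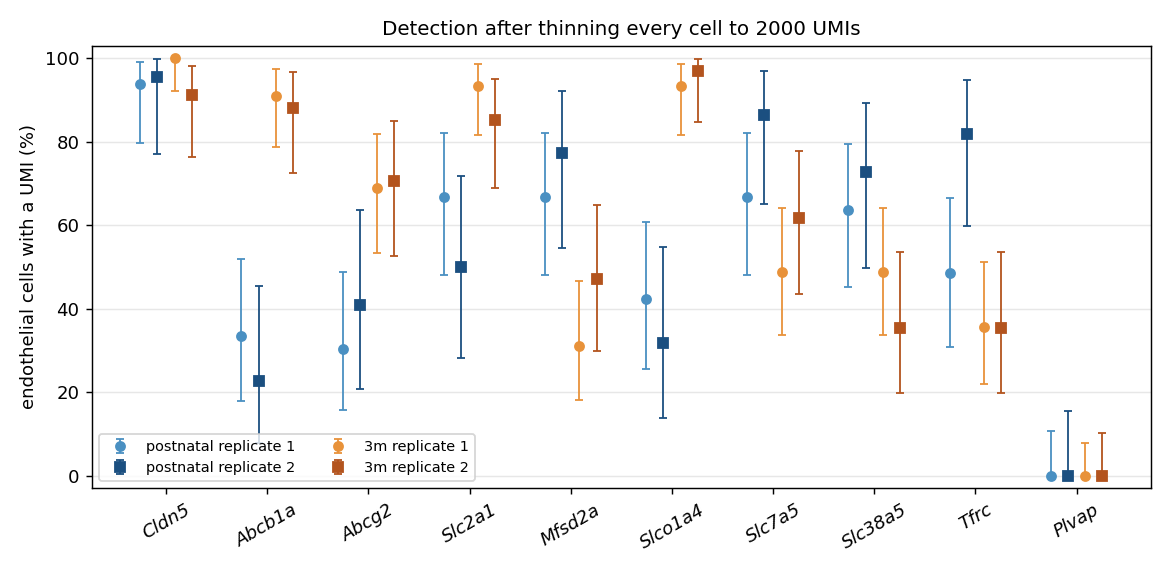
Share of endothelial cells with at least 1 UMI of each member after every cell was thinned to 2000 UMIs, by library. Bars are exact 95% Clopper-Pearson intervals, which cover counting error only. Abcb1a and Slco1a4 show the widest separation between ages, and Cldn5 lies above 90% in all 4 libraries.

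Spearman correlations between members over the cells of a library ran from -0.41 to 0.55. The pair whose weakest library stood highest was Slc7a5 and Slc38a5, at 0.14 there, and in sparse counts this is a description only. Slc38a5 divided the cells in another way at 3m. Thinned cells with a Slc38a5 UMI (22 and 12 cells in 3m replicates 1 and 2) held 341 and 333 CPM of the 9 arterial genes, and cells without one (23 and 22) held 2217 and 1250 CPM. The 7 venous genes ran the other way, with 1273 and 750 CPM in cells with Slc38a5 and 217 and 386 CPM in cells without. In the postnatal libraries, where 21 and 16 cells had a Slc38a5 UMI and 12 and 6 had none, the arterial genes stood at 286 and 125 against 583 and 417 CPM and the venous genes at 238 and 500 against 417 and 750 CPM. The arterial genes thus lay lower beside Slc38a5 in all 4 libraries, and the venous genes lay higher beside it only in both 3m libraries. These sums rested on few UMIs, 4 to 16 per list in the postnatal cells and 8 to 102 in the 3m cells. Over all 3m endothelial cells, unthinned, the arterial list held 1497 and 875 CPM. Most of that was Gkn3 (781 and 224 CPM) and Mgp (441 and 396 CPM). Gkn3 had no UMI in the postnatal endothelial cells, so the arterial sums of the ages rest on unlike genes. Cells of 1 library are not replicates, and no test was made.

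The members were next compared with all other filtered cells of the same library, to see which of them belonged to endothelium in these preparations. 9 of the 10 members were called higher in endothelial cells, against 13.4% of 11838 genes. Slc38a5, Abcb1a, Cldn5 and Slco1a4 were the most restricted, with log2 differences of 9.33 ± 0.49, 8.87 ± 0.60, 8.85 ± 0.79 and 7.88 ± 0.31 (SE, adjusted p of at most 0.00041, edgeR with library as a block). The rest of the cells held at most 20.3 CPM of any of these 4. Slc7a5, Abcg2, Slc2a1 and Tfrc differed by 4.82, 4.70, 4.14 and 3.85 on the log2 scale. Mfsd2a differed by 3.11 ± 0.71 (adjusted p = 0.016, edgeR), and without postnatal replicate 1 that difference no longer passed (adjusted p = 0.061). Plvap, at 4.83 and 5.92 CPM in the other postnatal and 3.1 and 3.17 CPM in the other 3m cells, was not called (log2 -1.65 ± 0.79, adjusted p = 0.148, edgeR).

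**Figure D3:**
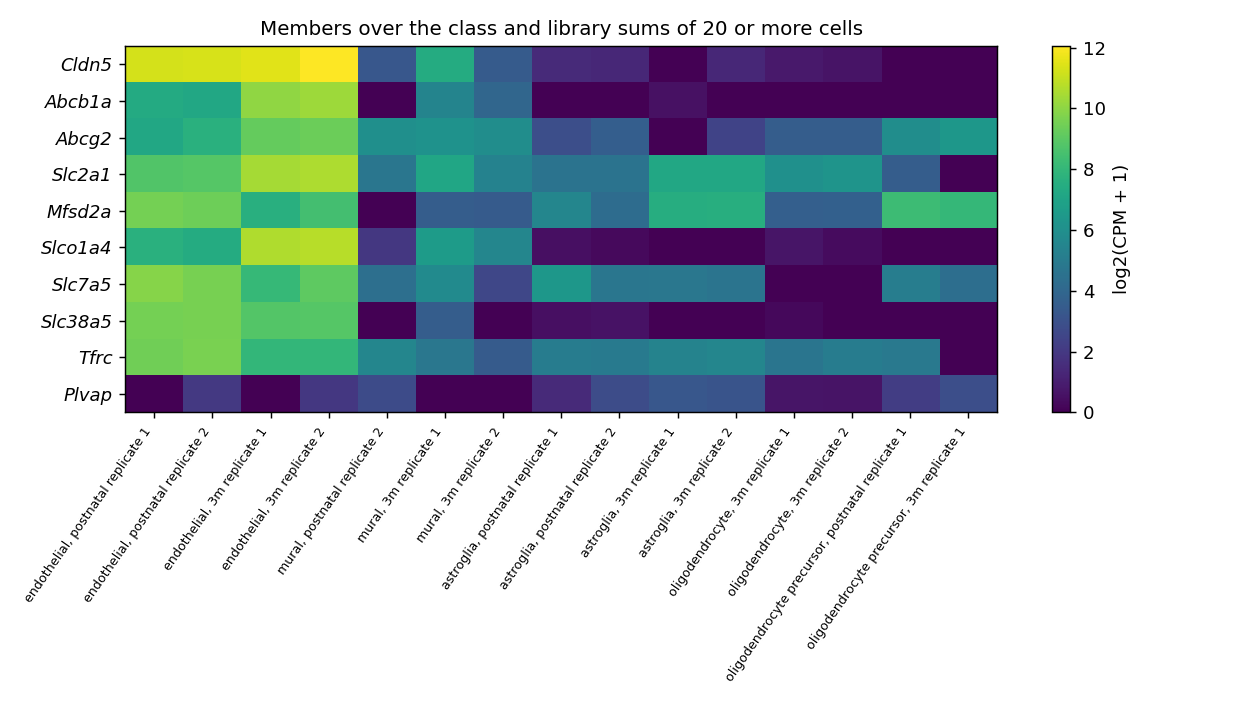
Level of the members, as log2(CPM + 1), in the 15 class and library sums of at least 20 cells. Cldn5, Abcb1a, Slco1a4 and Slc38a5 are bright in the 4 endothelial columns and dark in glia, whereas Slc2a1, Mfsd2a and Tfrc also show in astroglia and Mfsd2a in oligodendrocyte precursors.

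Cells that passed no gate carried some barrier RNA at 3m. Cldn5 was at 1.87 and 12.7 CPM in ungated postnatal and at 395 and 319 CPM in ungated 3m cells, and Slco1a4 at 0.469 and 3.48 against 168 and 119 CPM. Asking for only 2 of the 3 gate genes brought the endothelial cells to 41, 37, 58 and 43. The same 4 rises and 3 falls were then called, and Cldn5 had a log2 change of 0.50 that stayed under 2-fold (adjusted p = 0.047, edgeR).

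Astroglia, the target of the enrichment, shared some of these genes. A cell counted as astroglia when Slc1a3, Aldoc and Slc1a2 each had at least 1 UMI and it passed no other gate. The study lists all of these among its mature striatal astrocyte genes. No gate was passed by 258 and 160 postnatal and 84 and 59 3m filtered cells. How far this choice of cells shaped the changes in astroglia was not tested. Slc2a1 was at 23.2 and 23.1 CPM in the 2 postnatal and 151 CPM in each 3m astroglia sum, and was called 7.79-fold higher (log2 2.96 ± 0.17 SE, adjusted p = 0.0011, edgeR). Mfsd2a, which fell in endothelium, went from 45.6 and 18.4 CPM to 182 and 188 CPM in astroglia and was called 7.19-fold higher (log2 2.85 ± 0.43 SE, adjusted p = 0.0060, edgeR). In neither gene did the ages overlap. They were the 2 members called higher, where 13.9% of 11281 genes were, and no member was called lower, where 10.3% were. The Mfsd2a call needed both 3m libraries, although the size of the change did not: without 3m replicate 1 or 2 the log2 change was 2.85 or 2.80 and the adjusted p 0.070 or 0.080 (edgeR), and all calls in astroglia went from 2734 to 253 or 162. The size depended on the postnatal libraries, which lay further apart, and was 3.59 on the log2 scale without postnatal replicate 1 and 2.21 without postnatal replicate 2, called in both cases.

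Tfrc in astroglia stood at 32.5 and 29.0 against 41.4 and 44.7 CPM and passed at under 2-fold (log2 0.75 ± 0.20 SE, adjusted p = 0.032, edgeR). Slc7a5 was at 81.8 and 26.0 CPM in the postnatal and 26.5 and 24.3 CPM at 3m, so 1 postnatal library stood apart, and it was not called (adjusted p = 0.298). Abcg2 was at 6.33, 11.3, 0 and 4.31 CPM and was not called either (adjusted p = 0.169). Plvap, at 1.69 and 6.02 against 8.55 and 7.83 CPM, did not pass with all libraries (log2 1.16 ± 0.53 SE, adjusted p = 0.139, edgeR) but did without postnatal replicate 2 (log2 2.43). Mfsd2a was also found in oligodendrocyte precursors, at 306 CPM in 57 cells of postnatal replicate 1 and 263 CPM in 24 cells of 3m replicate 1. The 15 and 29 postnatal and 56 and 42 3m mural cells held 0 and 10.7 CPM of it at the lowest and highest.

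**Figure D4:**
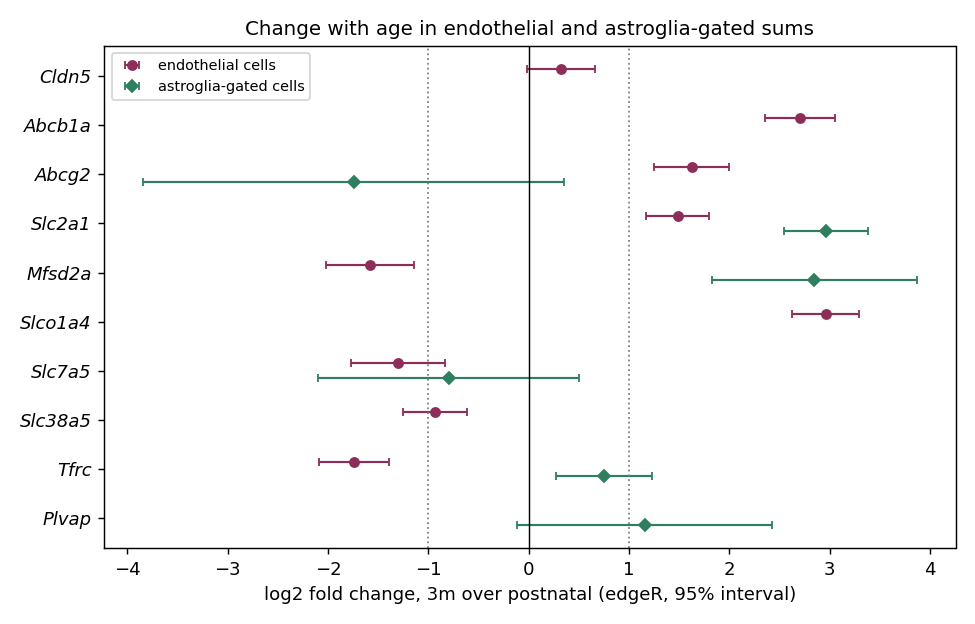
Log2 fold change of each member from postnatal to 3m in endothelial sums (circles) and astroglia-gated sums (diamonds), with 95% intervals. The dotted lines mark a 2-fold change. A missing point means that the member did not pass the count filter in that class. Mfsd2a lies on opposite sides of 0 in the 2 classes.

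The difference between the classes was tested itself, in 1 model over the endothelial and astroglia sums of each library, for the 5 members tested in both. 4 of the 5 were called. The log2 change in endothelium minus that in astroglia was -4.59 ± 0.33 for Mfsd2a (SE, adjusted p = 2.12e-12, edgeR) and -2.53 ± 0.29 for Tfrc (adjusted p = 3.2e-08, edgeR). For Slc2a1, which rose in both classes, it was -1.51 ± 0.29 (adjusted p = 0.00023, edgeR). Abcg2 had the higher change in endothelium, by 3.32 ± 0.50 (adjusted p = 5.91e-06, edgeR), but it rested on few astroglia UMIs (15, 90, 0 and 11), and DESeq2 did not call it (adjusted p = 0.101). Its size was not stable, at 2.42 without 3m replicate 1 and 9.09 without 3m replicate 2, where the only 3m astroglia count left was 0 and the fitted value measures no size. For Slc7a5 no difference was called (log2 -0.76 ± 0.37 SE, adjusted p = 0.199, edgeR), but without postnatal replicate 1 it was -1.56 and was called (adjusted p = 5.97e-06), and without postnatal replicate 2 it was close to 0. Over all 12132 genes, 5.76% were called higher and 6.05% lower.

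The members were set beside 10 lists of genes of the barrier, its pathway, vessel type and cell state in the same fit of endothelial sums, in which 9.89% of all genes were called higher and 9.26% lower. Lists that hold members are also given without them. Junctions were a list of 14 genes, of which 12 were tested. 3 rose and none fell, with a list median of 0.49 on the log2 scale against -0.01 over all genes tested, and 0.56 over the 11 genes other than Cldn5. The 3 were Pard3, a polarity protein (log2 1.31), Jam2, a junctional adhesion molecule (1.09), and Ocln, occludin (1.04, from 101 and 97.4 to 215 and 255 CPM). Esam (log2 -0.15) and Pecam1 (0.41) of this list were also gate genes. Neither was called, but both are among the genes tested and in both medians. The 8 ABC genes gave 6 tested, 4 higher and 1 lower, with a median of 1.56, and without Abcb1a and Abcg2 4 tested, 2 higher and 1 lower, with a median of 0.96. Beside Abcb1a and Abcg2, Abcc4, a pump of organic anions, rose from 16.1 and 16.3 to 133 and 152 CPM (log2 2.92 ± 0.25 SE). Abca1, which exports cholesterol, fell from 134 and 187 to 59.1 and 40.2 CPM (log2 -1.86 ± 0.26 SE).

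Of the 24 solute carriers, all tested, 7 rose and 7 fell, with a median of 0.09, and of the 19 that are not members 5 rose and 5 fell, with a median of 0.20. Slc6a6, the taurine carrier, rose from 167 and 184 to 1279 and 1395 CPM (log2 2.73 ± 0.16 SE). Slc29a4 had the largest fall, but from 11.8 and 9.68 to 2.11 and 0 CPM. Slc3a2, the heavy chain that pairs with Slc7a5, was looked at for that role after its values were seen: it fell from 912 and 884 to 448 and 445 CPM (log2 -1.21 ± 0.15 SE, adjusted p = 9.76e-06, edgeR).

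Receptors that move cargo across the cell gave 8 tested of 9, with 1 higher and 3 lower and a median of -0.31, or 1 higher and 2 lower of 7 and a median of -0.05 without Tfrc. Together with Tfrc, Lrp8, an apolipoprotein E receptor, fell from 284 and 319 to 67.6 and 94.7 CPM (log2 -2.11 ± 0.21 SE). Igf1r, the receptor for insulin-like growth factor 1, rose from 157 and 242 to 570.0 and 723 CPM (log2 1.49 ± 0.20 SE). Caveolar genes other than Plvap were 8, all tested, with 3 higher, none lower and a median of 0.84: Cavin2 (log2 1.55), Cav2 (1.45) and Ehd2 (1.45), which coat or anchor caveolae.

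The Wnt pathway, which induces and maintains barrier traits, gave 3 higher and 1 lower of 19 tested and a median of 0.44, with 15 not called, so its share of calls was near that of all genes. Reck, a coreceptor for Wnt7 ligands, rose from 5.59 and 3.02 to 76.0 and 80.4 CPM (log2 3.95 ± 0.39 SE). Lef1, a transcription factor of the pathway, rose from 143 and 110.1 to 481 and 382 CPM (1.58 ± 0.19), and Sox17, an endothelial transcription factor, from 169 and 111 to 361 and 316 CPM (1.08 ± 0.20). Apcdd1, a Wnt inhibitor, fell from 67.1 and 76.2 to 27.4 and 28.7 CPM (-1.55 ± 0.29).

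**Figure D5:**
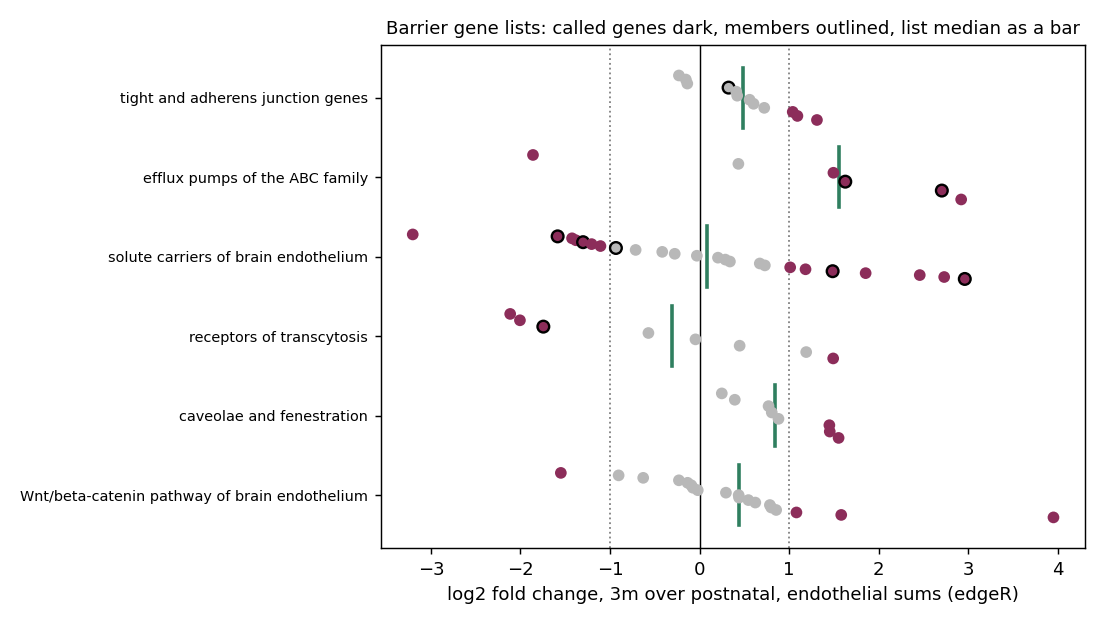
Log2 fold change from postnatal to 3m in endothelial sums for the tested genes of 6 lists. Dark points were called, black outlines mark the members, the green bar is the list median and the dotted lines mark a 2-fold change. The solute carriers spread over both sides, while the called junction and caveolar genes all lie on the right.

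The last lists cover cell state and vessel type. All 10 cycling genes were called lower at 3m, and the 4 with the largest fitted change had no UMI left there: Top2a was at least 38.5-fold lower, Cdk1 at least 29.4-fold, Mki67 at least 19.4-fold and Birc5 at least 18.1-fold, taking 3 UMIs over both 3m sums as the floor. The list median was -7.45, or -4.58 with such genes at their bound. Of 7 arterial genes tested, 4 rose and 1 fell, with a median of 2.73, and the list did not move one way. Gkn3 went from 0 UMIs to 781 and 224 CPM, at least 593-fold higher over the same kind of floor, Bmx rose from 0.621 and 3.63 to 82.3 and 48.8 CPM, Mgp from 60.2 and 5.44 to 441 and 396 CPM and Sema3g from 6.83 and 5.44 to 48.6 and 45.9 CPM. Hey1, a Notch target named here after its values were seen, fell from 59.6 and 64.7 to 19.0 and 40.2 CPM (log2 -1.33), while Gja4 (-0.77) and Efnb2 (-0.18) were not called. Among 5 venous genes tested 1 rose, Vcam1, from 1.24 and 4.84 to 220 and 20.1 CPM, with its 3m libraries far apart, and the median was 0.33. Of 10 dissociation and immediate early genes 2 rose, the heat shock genes Hspa1b (log2 5.44) and Hspa1a (5.15), and 1 fell, Egr1 (-2.69), with a median of -0.08.

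The genes most like each member were sought over the 15 class and library sums, as a description with no test, since sums of 1 library share its depth. Slc38a5 was matched best by AU021092 and Robo4 (Pearson r of log2(CPM + 1) 0.998 and 0.994), Cldn5 by Grrp1 and Pglyrp1 (0.993 and 0.992), Abcb1a by Adgrf5 and Sox18 (0.991 and 0.991) and Slco1a4 by Srgn and Ly6a (0.981 and 0.981). Less close were the matches of Slc7a5 with Baiap2 and Rgs12 (0.966 and 0.955), Tfrc with Prrg2 and Inpp5k (0.946 and 0.905), Abcg2 with Cd200 and Cav1 (0.942 and 0.939), Mfsd2a with Frrs1 and Slc46a3 (0.936 and 0.897) and Slc2a1 with Vamp5 and Prrg2 (0.921 and 0.900). Plvap was under the level at which a match was sought.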

How the data were processed

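The members, gene lists and tests were chosen with earlier results of these data known. The deposited table holds raw UMI counts of 31053 genes in 4245 barcodes, with the runs of a library merged by the authors. Per the labels, the processing used Cell Ranger, Seurat 3.1.1 and mm10. Library totals ran from 7185335 to 11501049 UMIs. Endothelial sums held 1610076, 1653324, 473644 and 348417 UMIs. No doublet caller was run; cells passing a second gate were kept and left out in an alternative.

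Cells were classed by marker gates. Calls needed an adjusted p of at most 0.05 and 2-fold. UMIs were summed per library and class and tested with edgeR 4.0.16 (TMM, filterByExpr, quasi-likelihood; R 4.3.3) after a test on simulated data. Comparisons within a library had library as a block. Alternatives were DESeq2 1.42.0, other scalings, filters, gates, thinning and leaving out each library. Named were all members and, per list, at most the 4 called genes with the largest change, plus the 2 genes most like each member. Some genes that this rule names are not reported here. Positions came from GENCODE vM21, motifs and windows from RefSeq. Poisson and Clopper-Pearson intervals of levels and shares cover counting error only, and intervals of fold changes come from the edgeR fit and include the spread between libraries. The SE of a log2 fold change in edgeR was its absolute value divided by the square root of the F statistic of the test. The intervals of fold changes were built from that SE.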

Additional observations from a re-analysis of the deposited data

Results flagged for a closer look

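The change with age differed between endothelial and astroglia-gated cells, by the test of that difference (edgeR, library as a block), for 4 members. The log2 change in endothelium minus that in astroglia was -4.59 for Mfsd2a, -2.53 for Tfrc, -1.51 for Slc2a1 and 3.32 for Abcg2. For Mfsd2a and Tfrc the fitted changes in the classes had opposite signs, and for Slc2a1 both were rises. The Abcg2 difference rested on 15, 90, 0 and 11 astroglia UMIs and was not called by DESeq2. Its size was not stable and was 2.42 without 3m replicate 1. Without 3m replicate 2 the only 3m astroglia count left was 0, so the fitted value measures no size.

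Barcodes left out of the main comparisons also held UMIs of the members, above the 3 counts that a count of 0 allows. Barcodes that failed the filters on detected genes or mitochondrial share numbered 96 and 96 in the postnatal libraries, with 25 and 27 member UMIs, and 329 and 512 in the 3m libraries, with 173 and 507 member UMIs. The smaller members of barcodes shared with postnatal replicate 2 held 166 in 3m replicate 2 (82 barcodes), of which 69 were Cldn5, 21 Slc38a5, 21 Tfrc and 17 Mfsd2a. 2 of those 82 barcodes passed the endothelial gate. Smaller members that passed the filters were used only in the alternative that kept them.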

How the results depend on the processing

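Of 171 refits of a member's change with age in endothelial cells, 166 kept its direction and its side of the threshold. The others were Slc7a5, not called without 3m replicate 1 (log2 -0.86) or after thinning to 2000 UMIs (-0.95), and Slc38a5, called without a count filter (-1.01), with the second gate (-1.02) or by adjusted p alone (-0.93). The 1669 genes called of 8712 tested became 1111 of 9114 with DESeq2, 629 of 3222 without cells of another gate, 255 of 1301 after thinning (in these last settings fewer genes were tested), 2428 by adjusted p alone, and 1326 to 1670 when 1 library was left out; in each leave-out the lone library of an age was assumed to vary like the other age. Without scaling factors 65.9% of 1765 calls were higher, against 51.6%, and the median change of all genes was 0.19 instead of -0.01. In astroglia 1 member was called lower without a count filter and under 5% mitochondrial UMIs (Abcg2), and leaving out 1 library gave 0 to 1 called lower and 1 to 3 called higher; the log2 change of Slc7a5 then ran from -1.50 to 0.23. Unscaled, 39.5% of calls in astroglia were higher, against 57.5%, and 79.9% of the differences between classes, against 48.8%, with medians over all genes of -0.25 and 0.46. With DESeq2, 0 members had the higher change in endothelium. Without thinning 2 members, not 4, had higher shares at 3m, and with 2 of 3 gate genes 2, not 4, had lower ones. Cldn5 joined the members with higher shares with 2 of 3 gate genes, and also when at least 2 UMIs were asked for. Other than where fewer genes were tested, the cause was not tested. The replicate block gave 1673 genes in endothelium and 2626 in astroglia, against 2734 without it, 4 members higher and 3 lower in endothelium; the numbers were not shown to pair the libraries (correlation of replicate differences 0.0013 and 0.015). The haemoglobin recounts were chosen after seeing the data. Depth limits Plvap and the low glial levels.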
